A study of Mus musculus with 30 samples.

Results

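Luminal and alveolar epithelial regulators were followed in carcinomas of the mammary gland that arose in Myc transgenic mice. They are 7 genes chosen by name with earlier results of these data known, Elf5, Elf3, Ehf, Grhl2, Esrp2, Gata3 and Foxa1. All 9 probes annotated to a single symbol among these were followed, out of 22800 probes and 15096 named genes on the array. The series holds 15 tumour RNA extracts, each hybridised on 2 arrays against 1 common reference RNA, once in channel 1 and once in channel 2. Every extract comes from a Myc transgenic mouse, and 10 numbers occur in the extract codes: number 579 stands on 5 extracts (579-A, 579-B, 579-D, 579-E and 579-F), number 546 on 2 (546-A and 546-B), and 540-B, 547-A, 548-A, 550-A, 561-B, 567-B, 595-A and 597-B have a number each. Extracts 550-A and 561-B are described under tumour progression, 595-A carries that description on 1 of its arrays, and the others are described under the change from epithelial to mesenchymal cells. The transgene's promoter, the strain and age of the mice, what the number and letter of a code mark, whether extracts came from separate animals and what the reference was made from were not stated in the labels. P-values therefore reflect the variation among the extracts as hybridised, which may be technical.

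Elf5, Elf3 and Ehf are transcription factors of the epithelium-specific branch of the ETS family, which bind DNA motifs with a GGAA core. Elf5 acts below the prolactin receptor and drives the alveolar, milk-producing fate of luminal progenitors. Grhl2, a grainyhead factor, maintains E-cadherin and tight junction genes, and Esrp2 is an RNA-binding protein that sets the epithelial splicing pattern of transcripts such as that of the growth factor receptor gene Fgfr2. Gata3 is required for luminal differentiation, and Foxa1 opens chromatin for the oestrogen receptor in hormone-sensing luminal cells.

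Promoter sequences are shown for members on which the comparisons below turn, so that their starts can be seen beside the values: both annotated starts of Elf5, the member farthest from the reference, and those of Elf3 and Foxa1, the members in which a searched motif was found. Each runs from 250 bases before to 50 after an annotated start, 5′ to 3′ on the strand of the gene, from RefSeq on GRCm38.p6. The 2 Elf5 starts lie at chr2:103411848-103412147 and chr2:103423818-103424117 on the plus strand, Elf3 at chr1:135258423-135258722 and Foxa1 at chr12:57546062-57546361, both on the minus strand. Capitals mark matches to a motif.
Elf5 upstream start: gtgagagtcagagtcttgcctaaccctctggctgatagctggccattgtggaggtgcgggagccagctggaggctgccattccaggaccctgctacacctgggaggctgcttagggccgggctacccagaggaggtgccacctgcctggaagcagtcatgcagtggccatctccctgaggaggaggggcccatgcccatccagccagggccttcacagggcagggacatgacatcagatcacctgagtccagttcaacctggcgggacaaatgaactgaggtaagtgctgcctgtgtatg
Elf5 downstream start: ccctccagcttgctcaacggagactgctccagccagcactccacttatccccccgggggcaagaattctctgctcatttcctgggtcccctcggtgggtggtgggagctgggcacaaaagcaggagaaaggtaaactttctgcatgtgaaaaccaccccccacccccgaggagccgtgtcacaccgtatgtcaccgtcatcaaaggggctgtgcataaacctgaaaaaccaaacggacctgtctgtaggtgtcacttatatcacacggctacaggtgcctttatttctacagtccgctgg
Elf3: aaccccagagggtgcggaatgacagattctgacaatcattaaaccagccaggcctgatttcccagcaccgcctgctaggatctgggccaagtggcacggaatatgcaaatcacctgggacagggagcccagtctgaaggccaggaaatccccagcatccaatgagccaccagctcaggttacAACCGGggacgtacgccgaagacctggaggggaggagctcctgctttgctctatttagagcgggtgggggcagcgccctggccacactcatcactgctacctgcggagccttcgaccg
Foxa1: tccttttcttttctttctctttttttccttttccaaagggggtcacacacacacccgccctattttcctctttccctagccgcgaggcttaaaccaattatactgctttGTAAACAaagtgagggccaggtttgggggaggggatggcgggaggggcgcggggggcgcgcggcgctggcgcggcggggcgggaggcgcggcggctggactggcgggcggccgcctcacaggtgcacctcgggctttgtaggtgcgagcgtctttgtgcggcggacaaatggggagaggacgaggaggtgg
Letters of 5 motifs were searched on both strands. AGGAAG, bound by ETS factors, occurs in 35.4% of 32851 promoters of this length. AGATAA, bound by GATA factors, occurs in 11.2% of them. For grainyhead factors AACCGG was used, which 6.83% hold, and for STAT5 TTCNNNGAA, which 8.3% hold. The FOXA letters TGTTTAC occur in 3.65%. Elf3 held the grainyhead letters at position -68 from its start, and Foxa1 held the FOXA letters, read on the other strand, at -141. The windows of Elf5 (2 starts) and Gata3 (1 start, chr2:9878551-9878850, minus strand) held none of the 5. Promoters matched for 4 of the 7 members; Ehf, Grhl2 and Esrp2 were not matched. Ehf and Elf5 are neighbours on chromosome 2 in the RefSeq gene table, with 0 protein-coding genes and 2 other genes annotated between them.

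Values below are log2 ratios of an extract to the reference, averaged over the paired arrays. The labels name neither dye nor numerator, so arrays with the extract in channel 2 were turned in sign, and positive values lie on the side on which Myc lay (3.16 ± 0.11, SE, n = 15 extracts), called the Myc side. From the design this is likely the side on which the carcinoma exceeded the reference, but the labels do not settle it, and all directions would turn together. As deposited, the paired arrays of an extract correlated over tested probes at r from -0.47 (567-B) to 0.04 (579-F), with 579-E at 0.0026 the only other extract not below 0. Arrays held from 13434 to 21991 measured probes, and their number limits the precision. A probe was tested where at least 24 of the 30 arrays and every extract had a value, which held for 12888 probes, 9919 genes and 8 of the 9 member probes.

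The comparison with the reference asked which of these regulators set the carcinomas apart from it. Of the 7 genes 6 lay on the Myc side by limma at an adjusted p under 0.05, and Foxa1 did not pass, where 33.5% of all genes tested (30.4% of probes) lay on that side and 14.9% (16.9% of probes) on the other. With each array centred on its median these shares of genes became 28.5% and 19.6%, and the same number of members passed. The median over the 7 genes was 1.29, against 0.16 over all genes. Since members were chosen with earlier results of these data known, their excess over all genes is a description and no independent test. The ETS genes Elf5 and Ehf stood farthest out, followed by Esrp2, and Elf3, Grhl2 on probe 11954 and Gata3 lay nearer the reference; the untested Grhl2 probe 1485 averaged 3.19. In 5 genes, Elf5, Elf3, Ehf, Grhl2 and Esrp2, all 15 extracts were on the Myc side, as for 7.95% of tested probes. That holds for extract values averaged over the arrays. On single arrays Grhl2 probe 11954 was positive in 11 of 15 extracts in channel 2, and Elf3 in 13 of 15 in channel 1. In bulk tumour RNA more epithelial cells and more RNA per cell cannot be told apart.

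Elf5 (probe 20849) ran from 2.44 in 597-B over a median of 5.05 to 7.04 in 579-F. Both ends rested on 1 array each, and over the 11 extracts with both arrays it ran from 3.04 in 550-A to 6.32 in 567-B. Its mean of 4.92 ± 0.31 (SE, n = 15) is a 30.3-fold difference from the reference (limma adjusted p = 1.41e-09). All 26 arrays with a value were on the Myc side, the lowest at 1.93. Ehf (probe 19369) ran from 2.66 in 550-A over a median of 4.85 to 5.97 in 567-B, with a mean of 4.70 ± 0.23, a 26.1-fold difference (limma adjusted p = 2.76e-11), and 550-A stood apart below the next extract at 3.64. Elf3 (probe 18494), the third ETS gene, was at 0.25 in 540-B, 1.50 at the median and 2.84 in 561-B. Its mean was 1.29 ± 0.18, a 2.45-fold difference (limma adjusted p = 1.15e-05).

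Esrp2 (probe 5736), the splicing regulator, ran from 1.87 in 546-A, on 1 array, over a median of 2.89 to 3.99 in 547-A. With an SD of 0.60 it varied least among the tested member probes, and its mean of 2.93 ± 0.15 is a 7.61-fold difference (limma adjusted p = 8.83e-11). Grhl2 had 2 probes that did not give the same size. Probe 11954, with values on all 30 arrays, ran from 0.36 in 550-A over a median of 1.01 to 3.39 in 579-D and averaged 1.20 ± 0.18, a 2.29-fold difference (limma adjusted p = 4.44e-05). Probe 1485 had values on 22 arrays and none in 548-A and 561-B, so it was not tested with the rest. It ran from 1.51 in 550-A to 4.49 in 546-A over 13 extracts, all on the Myc side, with a mean of 3.19. Under a looser filter of values in at least 8 extracts, probe 1485 passed too (limma adjusted p = 2.40e-07). Over the 13 shared extracts the 2 probes did not order the extracts alike: in 579-D probe 11954 had its highest value and probe 1485, at 1.82, its second lowest.

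Gata3 (probe 18699) stood below 0 in 579-E (-0.81) and 548-A (-0.30) and above it in the other 13 extracts, with a median of 0.90 and a highest value of 2.50 in 567-B. Its mean of 0.89 ± 0.21 is a 1.86-fold difference (limma adjusted p = 0.00182). Foxa1, its partner in hormone-sensing cells, did not differ from the reference beyond the spread on either probe. Probe 10524 ran from -1.03 in 567-B to 2.04 in 550-A, with 7 extracts on the Myc side and 8 on the other, and averaged 0.16 ± 0.26 (limma adjusted p = 0.655). Probe 18553 ran from -2.50 in 548-A to 0.80 in 595-A and averaged -0.22 ± 0.19 (limma adjusted p = 0.37), so the 2 probes fell on different sides of 0. Of the 30 values of probe 10524, 14 were log2 ratios of whole numbers up to 20, as were 33.6% of all values. Probe 18553 had 4, and the other member probes from 0 (Elf5) to 5 (Grhl2 probe 1485). Whether the Foxa1 signal lay above background was not tested.

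**Figure D1:**
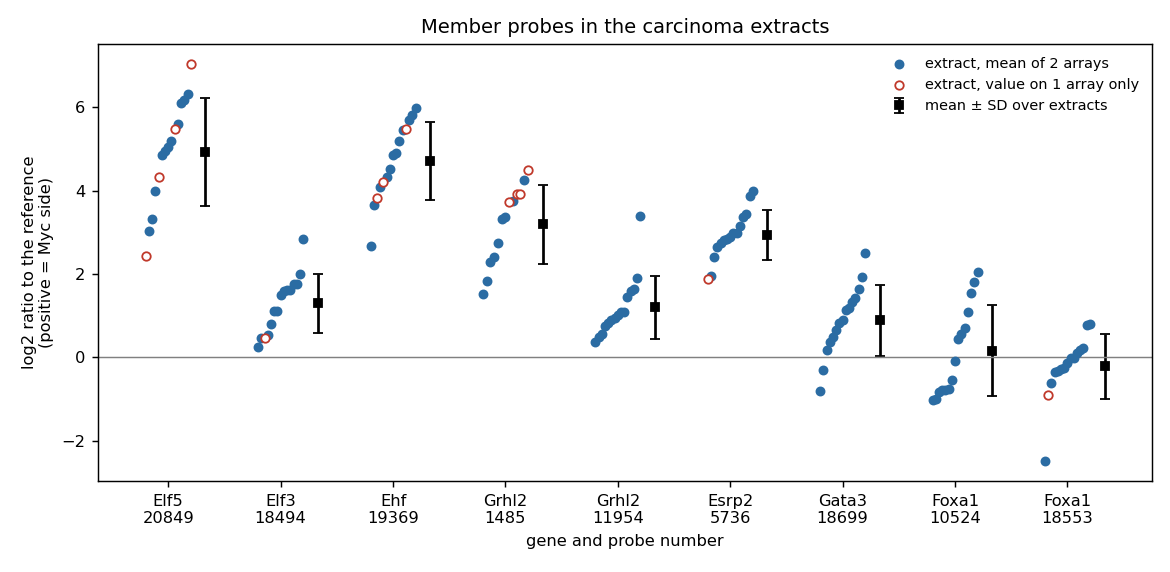
Log2 ratio to the reference (y axis, positive on the Myc side) of each of the 15 extracts for the 9 member probes (x axis, gene and probe number); filled points are means of 2 arrays, open points rest on 1 array, and squares with bars are the mean ± SD over extracts. Elf5 and Ehf lie highest, at means of 4.92 and 4.70, and both Foxa1 probes straddle 0.

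The channel that held the extract bore on each member differently. With the extract in channel 1, Foxa1 probe 10524 averaged -1.52 ± 0.35 (SE) and was positive in 4 of 15 extracts; in channel 2 it averaged 1.83 ± 0.30 and was positive in 14 of 15. Each of these passed alone (limma adjusted p = 0.00155 and 7.30e-05), on opposite sides. The channel 1 array was the lower of the pair in 15 of 15 extracts, the difference of channel 1 minus channel 2 being -3.35 ± 1.71 (SD), and 4.34% of tested probes had a gap as large. Probe 18553 behaved likewise, at -1.27 ± 0.23 in channel 1 and 0.81 ± 0.28 in channel 2, with the channel 1 array lower in 14 of 14 pairs. As deposited, the ratio of Foxa1 thus mostly kept its sign when extract and reference exchanged channels, and its mean over both orientations is a mean of opposed values. Such opposition was common on these arrays: 15.6% of all genes passed on opposite sides in the 2 orientations, and 16.1% passed on the Myc side in both. Of the 7 members, 6 passed on the Myc side in each orientation alone, that is all but Foxa1.

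Size, unlike the side of the mean, moved with the channel for other members. Ehf averaged 3.96 in channel 1 and 5.69 in channel 2 and was lower in channel 1 in 12 of 12 pairs. Elf5 averaged 4.49 and 5.39, Esrp2 2.56 and 3.34, and Elf3 0.93 and 1.73, in the same order. Mean gaps as large were found in 15.7% of tested probes for Ehf, 32.0% for Elf5, 37.0% for Esrp2 and 41.9% for Elf3. The 2 Grhl2 probes shifted in opposite directions: probe 11954 was higher in channel 1 in 15 of 15 pairs (1.66 against 0.74), and probe 1485 was lower there in 8 of 9 (1.77 against 4.11). A gap as large as that of probe 11954 was found in 35.8% of tested probes, and as that of probe 1485 in 8.86%. Gata3 was least affected, at 0.79 and 1.00. Extract values of Elf5, Ehf, Elf3 and Esrp2 that rest on 1 array, in 4, 3, 1 and 1 extracts, hold 1 orientation only.

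**Figure D2:**
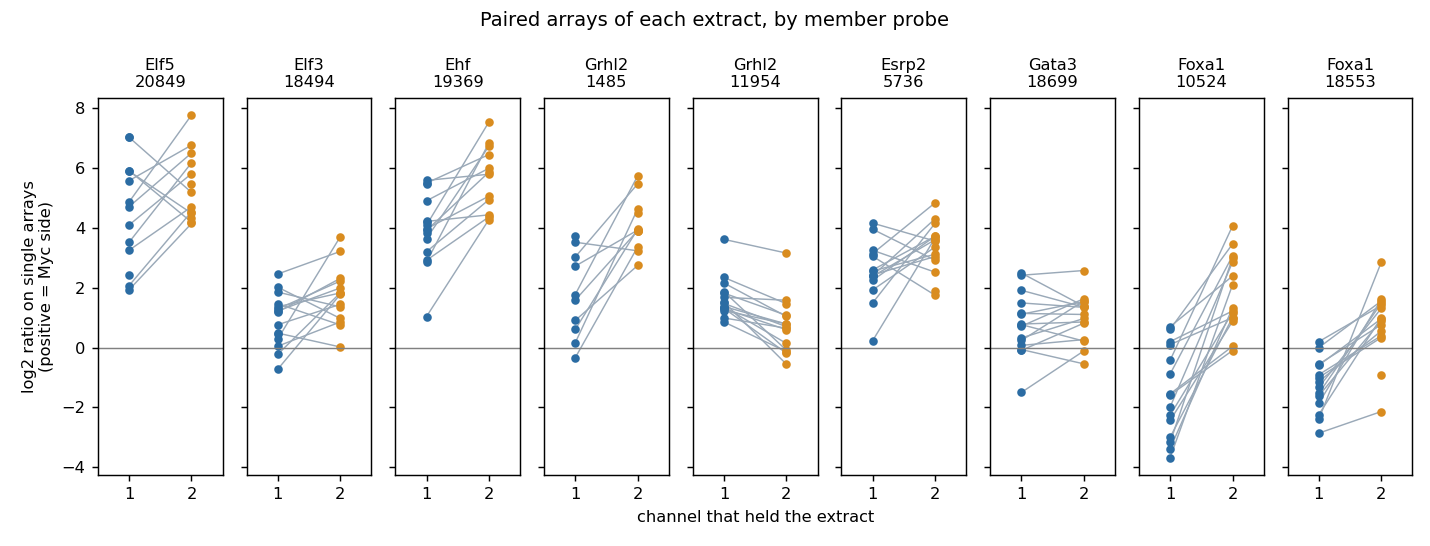
Log2 ratio on single arrays (y axis, positive on the Myc side) against the channel that held the extract (x axis) for the 9 member probes; lines join the paired arrays of an extract. Both Foxa1 probes lie mostly below 0 in channel 1 and above it in channel 2, while Elf5, Ehf and Esrp2 stay above 0 in both and Gata3 shifts little.

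A further comparison asked whether the regulators differed between carcinomas by more than the paired arrays of 1 RNA. Grhl2 (limma F-test adjusted p = 0.0134) and Gata3 (0.0226) did, 2 of 7 members, where 7.21% of all genes tested (6.73% of probes) did. Elf5 (0.535), Elf3 (0.562), Ehf (0.246), Esrp2 (0.803) and Foxa1 (0.355) did not pass, which does not show that they were alike in the tumours, since their paired arrays differed by 1.94, 1.16, 1.87, 1.41 and 3.35 on average, against 0.92 for Grhl2 and 0.59 for Gata3. Grhl2 on probe 11954 was high in 579-D, at 3.62 in channel 1 and 3.16 in channel 2. No other array reached the lower of these, and the next extract was 561-B, at 2.34 and 1.47. Without 579-D the call was lost (limma F-test adjusted p = 0.317). In that extract fibroblast markers (9 of 12 tested) averaged -2.46, the lowest of the 15 extracts (highest 0.87), and epithelial junction and surface genes averaged 1.62 (range 1.61 to 2.65); their part in the Grhl2 value was not tested.

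Gata3 was highest in 567-B, at 2.42 and 2.58 in channels 1 and 2, in 595-A (2.49 and 1.38) and in 540-B (1.91 and 1.35). It was lowest in 579-E (-1.50 and -0.11) and in 548-A (-0.07 and -0.54). Between these, 546-B (1.42), 579-A (1.32), 579-D (1.17) and 561-B (1.12) lay closer to each other than their paired arrays did on average. Its call was lost without 567-B (limma F-test adjusted p = 0.0818) or 579-E (0.0525), without 546-A and 548-A (0.0617), under the looser filter (0.0538), and after array medians were subtracted (0.086). For Grhl2 on probe 11954, 567-B (1.60) and 579-E (1.63), the highest and lowest extracts of Gata3, lay side by side, and 550-A, lowest for Grhl2 at 0.36, was also low for Gata3 at 0.17.

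**Figure D3:**
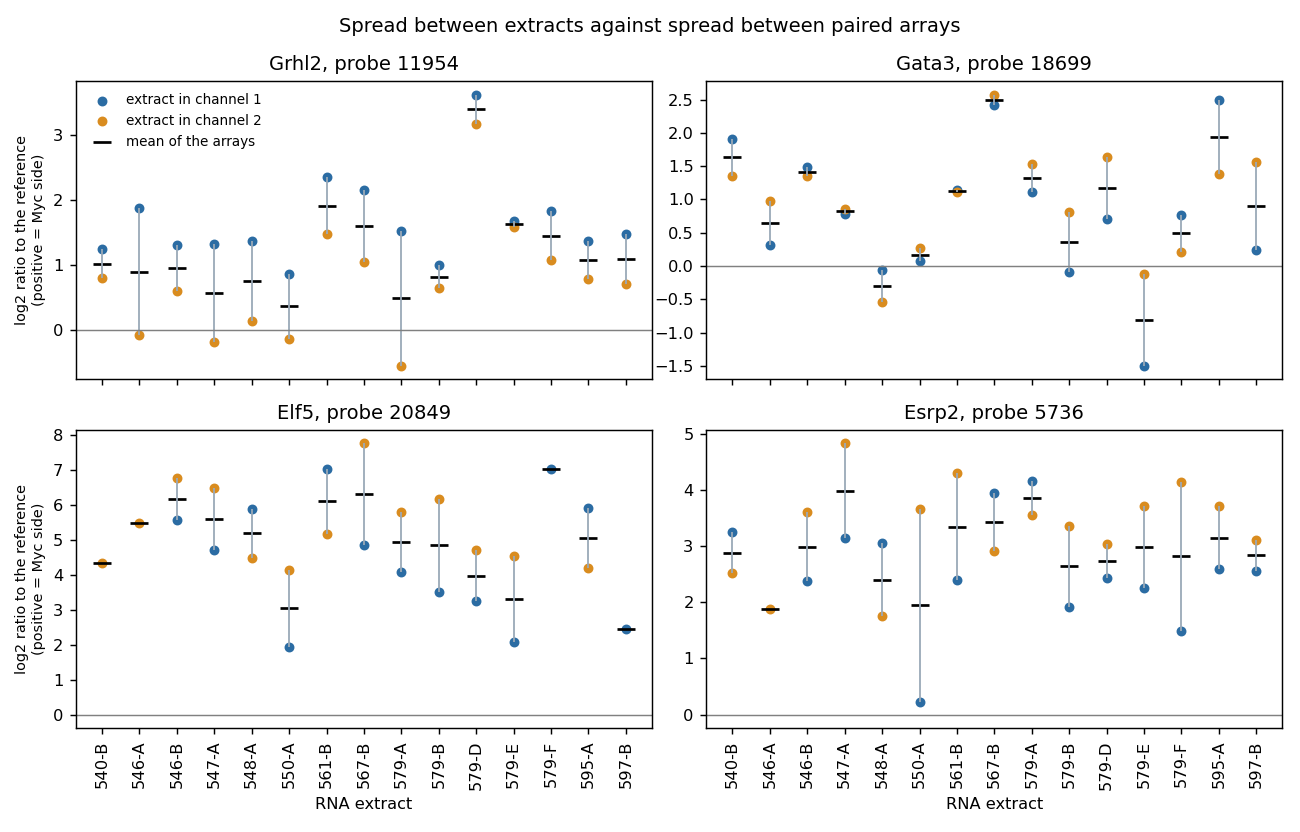
Log2 ratio to the reference (y axis, positive on the Myc side) by RNA extract (x axis) for Grhl2, Gata3, Elf5 and Esrp2; coloured points are single arrays by channel and bars their mean. The arrays of 579-D stand above all others for Grhl2 on probe 11954 (3.62 and 3.16), and for Elf5 and Esrp2 the paired arrays lie as far apart as many extracts do.

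Number 579 was set against the other numbers because it alone marks more than 2 extracts. No member passed by limma, in a comparison where 0% of the 12888 tested probes passed (460 at an unadjusted p under 0.05). On simulated data this comparison recovered 15% of changes of 1 log2 unit, so real differences of that size could be missed. Member differences, number 579 minus the others, ran from -0.71 to 0.53 with unadjusted p of 0.182 or more. Grhl2 averaged 1.55 ± 1.13 (SD, n = 5) in number 579 and 1.02 ± 0.46 (SD, n = 10) elsewhere, a difference of 0.53 ± 0.38 (SE; limma adjusted p = 1.00). Gata3 averaged 0.51 ± 0.85 against 1.08 ± 0.83, a difference of -0.57 ± 0.43 (limma adjusted p = 1.00). For both genes the 2 sets of extracts overlapped. Without 579-D the Grhl2 difference was 0.08, and without 579-E the Gata3 difference was -0.25. Grhl2 probe 1485, not tested, ran the other way, with 2.92 in number 579 and 3.36 elsewhere.

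The 2 extracts described under tumour progression were set against the 12 described otherwise on both arrays. No member passed by limma (0.00776% of tested probes did, 525 at an unadjusted p under 0.05). On simulated data this comparison recovered 1.5% of changes of 1 log2 unit and 51% of changes of 2, so real differences could be missed. Foxa1 probe 10524 had the smallest unadjusted p, 0.00158 (adjusted p = 0.945). It stood at 2.04 in 550-A and 1.54 in 561-B against a mean of -0.25 ± 0.76 (SD, n = 12), a difference of 2.04 ± 0.53 (SE), and 595-A, left out here, stood at 1.82. Its other probe gave -0.25 in 550-A and 0.19 in 561-B and did not show the difference (0.30 ± 0.56). The remaining members differed by -0.78 to 0.44, with unadjusted p of 0.27 or more, and 550-A and 561-B often lay far apart: Elf3 was at 0.53 and 2.84, Ehf at 2.66 and 5.47, and Elf5 at 3.04 and 6.10.

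Whether members moved with each other, or with genes they are known to act on, was asked over the 15 extracts for 14 pairs. Elf5 and the beta-casein gene Csn2, a milk gene that Elf5 is known to activate, had Pearson's r = 0.67 (permutation p = 0.00635, adjusted p = 0.0889 over 14 pairs) and Spearman's rho = 0.62 (permutation p = 0.0151, adjusted p = 0.212), so the relation did not pass the correction. Csn2 was below 1 in 550-A (-0.04), 579-D (0.60) and 579-E (0.60), and in the same extracts Elf5 stood at 3.04, 3.98 and 3.31, in the lower part of its range. Extract 548-A had low Csn2 (1.76) with Elf5 at 5.19. Without 597-B and 550-A, the 2 extracts farthest from the Elf5 median, r was 0.60, and with 1 value per extract number (n = 10) it was 0.72. With Elf5 and Csn2 taken from different arrays of an extract, r was 0.51 and 0.69 (n = 13 each), as measured after these values were seen.

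The other 13 pairs had r from -0.37 (Esrp2 and Zeb1) to 0.35 (Elf5 and Gata3), none with a permutation p under 0.176. Grhl2 on probe 11954 and the E-cadherin gene Cdh1 had r = -0.35 (permutation p = 0.201, adjusted p = 0.713). With 1 value per extract number (n = 10) their r was -0.67 (permutation p = 0.0356, adjusted p = 0.249). That sign is opposite to the role of Grhl2 given above, and the pair did not pass. For Elf5 and the kappa-casein gene Csn3 r was 0.27 (rho = 0.23; permutation p = 0.329 and 0.412, adjusted 0.884 and 0.938), and for the neighbours Elf5 and Ehf it was 0.21 (rho = 0.24; permutation p = 0.442 and 0.397, adjusted 0.884 and 0.938). Among the 21 pairs of members Ehf and Esrp2 had the highest r, 0.80 over 15 extracts, where the other 20 pairs ran from -0.46 to 0.44 with a median of 0.04. This pair was picked for its value and has no test. Its points share arrays: with Ehf in channel 1 and Esrp2 in channel 2 r was 0.05 (n = 15), the other way round 0.56 (n = 12), with both in channel 2 it was 0.18 (n = 12), and with both in channel 1 it was 0.69 (n = 14; 0.42 without 550-A). With each array centred on its median r was 0.69. On the channel 1 array of 550-A both stood lowest, Ehf at 1.04 and Esrp2 at 0.23.

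**Figure D4:**
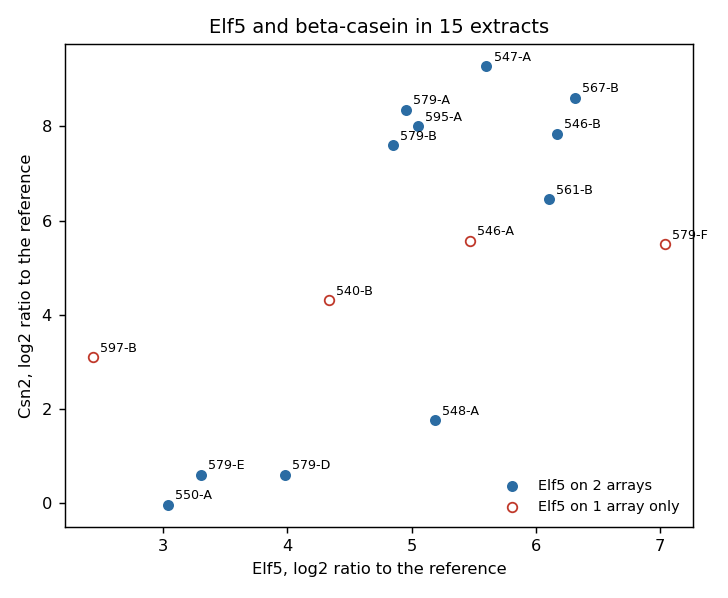
Csn2 (y axis) against Elf5 (x axis), both as log2 ratio to the reference, in the 15 labelled extracts; open points mark extracts in which Elf5 rests on 1 array. Extracts 550-A, 579-E and 579-D are low for both genes, and 597-B and 579-F, at the ends of the Elf5 axis, are open points.

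Related genes were read beside the members by lists, as counts against the 33.5% (Myc side) and 14.9% (opposite side) of all genes tested. The lists, like the members, were chosen with earlier results of these data known, so their counts describe and do not test. Of 17 other epithelial regulators 10 were tested: 5 lay on the Myc side, led by the AP-2 factor genes Tfap2a (2.07 ± 0.13) and Tfap2c (1.90 ± 0.15), and 1, the Krüppel-like factor gene Klf4 (-0.67 ± 0.26, limma adjusted p = 0.0416), on the other, with a median of 0.42. Of 32 further regulators of luminal and alveolar cells 25 were tested, with 14 toward Myc, 3 away from it and a median of 0.71. With each array centred on its median these counts became 13 and 4. Sox10 (3.75 ± 0.19), a factor of neural crest and mammary progenitors, and Cited4 (3.58 ± 0.18), a transcriptional coactivator, led that list, and Zfpm1 (-0.71 ± 0.16), a cofactor of GATA factors, and the kinase gene Jak2 (-0.65 ± 0.22) were farthest on the other side. Chosen after their values were seen, Stat5a, the prolactin effector, lay at 1.21 ± 0.18 on the Myc side, and the hormone receptor genes Esr1 (0.10 ± 0.13, limma adjusted p = 0.576) and Pgr (0.24 ± 0.17, 0.263) did not pass. Foxa1 did not pass either, but its mean is a mean of opposed values in the 2 orientations.

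Most milk, junction and surface genes shared the side of Myc. Of 12 tested milk and alveolar genes 11 did and 1 did not pass, with Csn3 (6.29 ± 0.41) and the siderophore-binding Lcn2 (5.93 ± 0.21) farthest out, and of 19 epithelial junction and surface genes 17 did and 2 did not pass, led by the claudin genes Cldn3 (4.76 ± 0.21) and Cldn7 (3.43 ± 0.20). Among 5 hormone-sensing genes Agr2 (0.33 ± 0.11) lay toward Myc and S100a6 (-3.15 ± 0.41), a calcium-binding protein also abundant in mesenchymal cells, away from it. With each array centred on its median Agr2 no longer passed and Tff3 did, at -0.25. Of 8 transcripts that ESRP proteins are known to splice, Scrib (0.83 ± 0.15) and Ctnnd1 (0.82 ± 0.13) lay toward Myc, Cd44 (-0.81 ± 0.24) and Slk (-0.76 ± 0.10) away from it, and 4 did not pass. Whole-gene ratios such as these do not measure splicing.

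Repressors of the epithelial programme and mesenchymal markers lay on the side away from the members, 11 of 13 by limma, with a median of -1.40, and Snai1 (-0.46) and Tcf3 (0.29) did not pass. With each array centred on its median the count was 12, as Snai1 passed at -0.55 (limma adjusted p = 0.0476). Vim (vimentin, -3.22 ± 0.22) and the mesenchymal factor gene Prrx1 (-3.16 ± 0.27) were farthest. Markers of other cells were mixed. Of 7 basal genes 3 lay on the Myc side, led by the integrin gene Itgb4 (2.17 ± 0.27), and smooth muscle actin, Acta2 (-1.85 ± 0.22), on the other. Of 9 fibroblast markers Postn (2.18 ± 0.35) lay toward Myc and 5 away from it, led by Pcolce (-2.37 ± 0.21). Toward Myc lay 5 of 5 endothelial, 6 of 9 macrophage, 3 of 8 squamous and 2 of 6 adipocyte markers, and away from it 1 macrophage, 2 squamous and 2 of 5 lymphocyte markers. None of 7 skeletal muscle markers passed by limma, with 1 at an unadjusted p under 0.05. With centred arrays the macrophage counts became 5 and 3 and the squamous ones 1 and 2. Whether the share of these cells differed between extracts and reference, and its part in the members' values, was not tested.

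**Figure D5:**
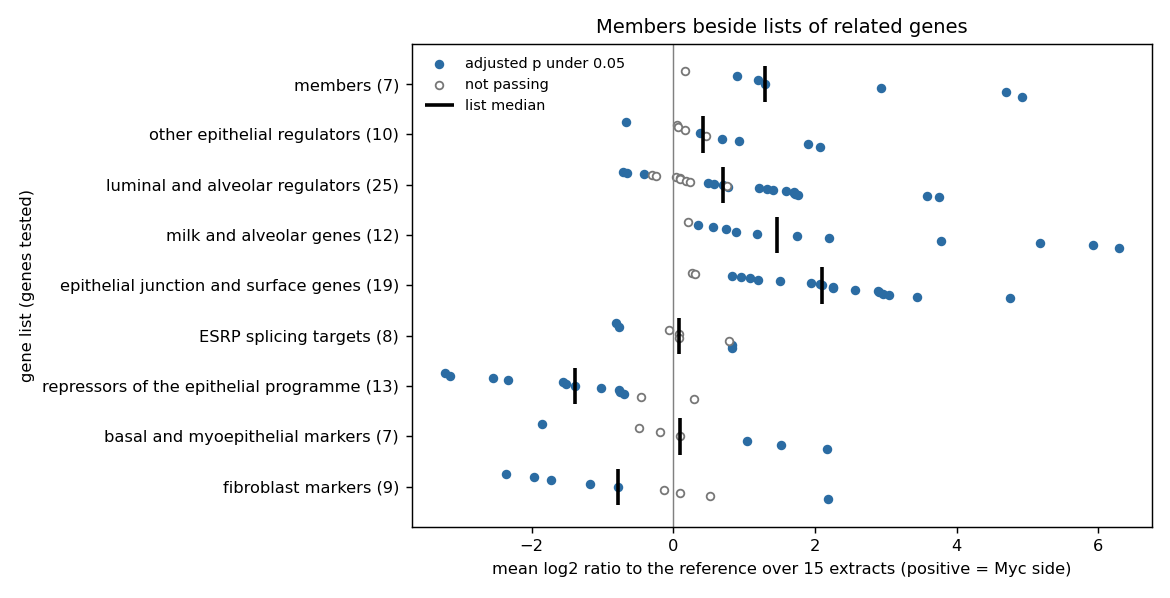
Mean log2 ratio to the reference over 15 extracts (x axis, positive on the Myc side) of each tested gene, by gene list (y axis, genes tested in brackets); filled points passed limma at an adjusted p under 0.05, open points did not, and bars are list medians. Members have a median of 1.29, epithelial junction and surface genes lie on the same side, and repressors of the epithelial programme lie on the other, at a median of -1.40.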

How the data were processed

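Expression was measured on 30 dual-channel arrays of 15 extracts against 1 reference. The authors deposited log2 ratios of the 2 channels, a scale read from the values; steps of background correction and normalization, and the build, were not given in the sources used here. Medians differed from array to array. The placeholder 16.61 (8839 cells) and 95268 blank cells were missing. Arrays with the extract in channel 2 were turned in sign and the arrays of an extract averaged, so a single value stands where its partner is missing. All 12888 probes that passed the filter (24 of 30 arrays and every extract) were fitted with limma 3.58.1 (lmFit and eBayes, R 4.3.3), Benjamini-Hochberg adjusted over all of them: extract means against 0, an F-test between extracts on single arrays with a dye term, and differences between sets of extracts. The reference is 1 RNA, so its spread is left out. Correlations used 100000 permutations, two-sided (Python 3.11.15, numpy 2.4.6). The fits were tested on simulated data with 200 changed probes. A change of 1 log2 unit was recovered for 78.5% of them against the reference, 15% for number 579 and 1.5% for tumour progression. A change of 2 was recovered for 99%, 74.5% and 51%. Between extracts, an SD of 1 was recovered for 46% and an SD of 2 for 83.5%.

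The probe annotation gave 1 symbol to 16874 probes. A gene is represented by its tested probe with most measured arrays (ties: lowest probe number). Named genes are all members, up to 2 of the farthest passing genes of each list per side, the fixed pairs, and 3 genes most like each member. Members and lists were chosen with earlier results of these data known. Alternatives were array medians subtracted, other filters, single orientations, extracts left out, and 1 value or a random block per extract number. Coordinates are given for RefSeq promoters alone, since the build behind the probes is not known here.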

Additional observations from a re-analysis of the deposited data

Results flagged for a closer look

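In 18 groups of 5 to 10 extracts (member probes within number 579 and within the other numbers), 3 extracts stood apart from the rest of their group, and chance alone flags about 1 in 20 such groups. These flags rest on values without centring of the arrays and were not rechecked with it. Elf3 in 579-F, at 0.47 on 1 array, lay below the other extracts of number 579, the nearest of which was at 1.60. With each array centred on its median, Elf3 was at 1.31 in 579-F and 1.47 in 579-A, so most of the gap was gone. Esrp2 in 579-A, at 3.86, lay above the others of number 579 (nearest 2.98). With centred arrays it was at 3.73, and 579-D, then the nearest, at 3.01. Foxa1 probe 18553 in 548-A, an extract with few measured probes, was at -2.50, with the nearest of the other numbers at -0.90. Probe 10524 gave -0.84 in 548-A. With centred arrays probe 18553 was at -2.28 in 548-A, and 546-A, the nearest, at -1.36.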

How the results depend on the processing

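Of the 7 members, 6 lay on the Myc side under all alternatives run except 2. Arrays with the extract in channel 2 gave 7, Foxa1 being the added one. On either side 7709 of 12888 probes passed there, and 7435 with the extract in channel 1, against 6088 in the main fit. Values on all 30 arrays gave 2 of the 3 members then tested, since fewer genes entered. Foxa1 turned to -1.52 with the extract in channel 1 and to -0.22 on its other probe. Between extracts the count of 2 members fell to 1 after array medians were subtracted, under the filter of 8 extracts, without 546-A and 548-A, and without a dye term (Grhl2 then at adjusted p = 0.558), and ran from 1 to 2 when single extracts were left out, a check added after the data were seen; 579-D carried Grhl2, and 567-B and 579-E Gata3. Over all probes the count between extracts was 867 of 12888. It was 520 under the looser filter, which admits more probes, 472 without 546-A and 548-A, and 393 without a dye term (568 without 546-A). Against the reference it was 6088 of 12888, and 4047 of the 6801 probes with values on all 30 arrays. For number 579 no alternative called a member, nor for tumour progression, where 1 probe in all passed, and 0 to 4 under alternatives. Of the 14 pairs of genes, Elf5 and Ehf alone passed, by rho with both in channel 2 (rho = 0.84, permutation adjusted p = 0.0484; r = 0.79, adjusted p = 0.0525; 10 extracts), an alternative added after the data were seen. With 1 value per extract number their r was 0.61. It turned to r = -0.048 without the 2 farthest extracts and -0.12 with Elf5 in channel 1 and Ehf in channel 2, where Elf5 and Csn3 gave -0.050. No paired analysis was possible between sets of extracts because the labels carry no replicate numbers that pair them; extract number as a random block kept 6 of 7 members. Members with a value on 1 array in some extracts, and probes with wide paired arrays, limit what can be seen between tumours.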

Other observations

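Genes whose pattern over the 15 extracts was most like a member's, among 9919 genes, are given as a description. Closest to Grhl2 were Serf2 (r = 0.88), Sil1 (0.88) and Reep5 (0.87), and closest to Gata3 were Syt8 (0.88), the proteasome gene Psmc5 (0.86) and Stat5a (0.82), which was also in a list of luminal regulators. Elf5 was closest to 4930599N23Rik (0.90), Slfn1 (0.85) and the RNA-binding protein gene Rbm47 (0.81), Ehf to Tnfsf14 (0.86), Hadhb (0.84) and Atp5a1 (0.82), and Elf3 to Sh3gl3 (0.83), Tuba1c (0.81) and Rangap1 (0.81). Esrp2 was closest to Hddc3 (0.90), Adh5 (0.88) and Alkbh3 (0.88), and Foxa1 on probe 10524 to Defa26 (0.87), Itln1 (0.85) and Egr2 (0.85). All points share arrays, the median r with all genes lay between 0.0074 (Grhl2) and 0.14 (Ehf), and of these 21 genes only Reep5 differed between extracts itself (limma F-test adjusted p = 0.022).

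In 550-A the channel 1 array gave the lower value for 8 of 9 member probes, for example Elf5 at 1.93 against 4.15, Elf3 at -0.72 against 1.77 and Grhl2 probe 1485 at -0.34 against 3.36. The same count was 8 of 9 in 547-A, 579-D and 579-E and 3 of 8 in 540-B and 548-A. Over all tested probes the mean difference of channel 1 minus channel 2 had a median of -0.30, so lower channel 1 values were not particular to members. The share of all probes lower in channel 1 was not counted by extract.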
